A study of Mus musculus with 6 samples.

Results

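An RNA sequencing study of macrophages on hydrogels covered 56691 genes. Followed here were 10 genes listed as inhibitory leukocyte receptors: Lilrb4a, Lilrb4b, Pirb, Cd72, Sirpa, Cd300a, Cd300lf, Clec4a2, Siglece and Lair1. They were taken by gene symbol, and all 10 were found. The genes were chosen with the MSA-DA against MSA-ZW values of these same libraries known, so their differences between the gels are a description and carry no test. Wild-type cells of a virus-transformed mouse macrophage line, spelled RAW246.7 in the labels, were pretreated with lipopolysaccharide (LPS, the outer membrane glycolipid of Gram-negative bacteria, which activates macrophages) and then kept for 24 h on MSA-DA or MSA-ZW hydrogels. There were 3 libraries for each gel, all from the same line with the same pretreatment, and cells off a gel or without LPS were not analysed here. The title of the series names fibrin networks that form in macroporous hydrogels and differ with protein absorption, and it asks how macrophages respond. The labels do not say whether the 3 libraries of a gel are separate cultures, and the p-values cover only the spread among these samples, which may be technical.

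Inhibitory receptors of this kind sit in the cell membrane and carry, in the part inside the cell, a short stretch around a tyrosine called an ITIM (immunoreceptor tyrosine-based inhibitory motif). When Src-family kinases phosphorylate that tyrosine, the motif recruits the phosphatases SHP-1, SHP-2 or SHIP1, which oppose the kinase signals of activating receptors. In macrophages they restrain phagocytosis, cytokine release and signalling through Fc and Toll-like receptors, and many have activating relatives that signal through the adaptors DAP12 and Fc receptor gamma.

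The coding sequences were read first, because the group's name rests on this motif and because Lilrb4a and Lilrb4b are near-identical copies. In the GENCODE transcript models of GRCm38, a stretch of serine, isoleucine, valine or leucine, any residue, tyrosine, any 2 residues, then isoleucine, leucine or valine was found in the predicted tail inside the cell of 9 of the 10 receptors. Pirb and Sirpa held 3 such stretches, Lilrb4a, Cd72, Cd300a, Cd300lf and Lair1 held 2, and Clec4a2 and Siglece held 1. The pattern is loose: 49.1% of 21514 mouse proteins hold it somewhere, and a match is not by itself a working motif. Lilrb4b held none in its tail, so the description as an ITIM receptor goes against its sequence. The coding bases of Lilrb4a and Lilrb4b were 96.0% identical over 907 aligned bases. They part in the tail, where the same stretch is shown for both, from coding base 868, with the motif's tyrosine codon of Lilrb4a and the stop codon of Lilrb4b in capitals:
Lilrb4a: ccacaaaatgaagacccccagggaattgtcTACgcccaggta
Lilrb4b: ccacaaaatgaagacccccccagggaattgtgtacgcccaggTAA
Lilrb4b has 2 bases more in its run of c, which shifts the reading frame. The bases of the shown motif are then read in another frame just before the stop codon, and the protein ends at 303 residues where Lilrb4a runs to 335, with its end motif tyrosine at residue 322. The motif stretches of the 4 receptors with a motif whose levels differed between the gels are these, with the tyrosine codon in capitals:
Lilrb4a, membrane-near motif: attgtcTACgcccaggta
Lilrb4a, end motif: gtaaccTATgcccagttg
Cd72, start motif: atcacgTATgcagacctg
Cd72, membrane-near motif: ctcaccTACgagaatgtg
Sirpa, membrane-near motif: atcacaTACgcagacctg
Sirpa, middle motif: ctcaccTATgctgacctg
Sirpa, end motif: tcagagTATgctagtgtc
Cd300lf, membrane-near motif: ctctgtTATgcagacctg
Cd300lf, end motif: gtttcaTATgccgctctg
All are exonic and coding. On GRCm38 the motifs of Lilrb4a lie at chr10:51496021-51496038 and chr10:51496194-51496211 on the plus strand. Those of Cd72 lie at chr4:43454498-43454515 and chr4:43454306-43454323 on the minus strand. Those of Sirpa lie at chr2:129629954-129629971, chr2:129630077-129630094 and chr2:129630149-129630166 on the plus strand, and those of Cd300lf at chr11:115117648-115117665 and chr11:115117112-115117129 on the minus strand. Gene positions given further on are those of the deposited table, which uses GRCm39.

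Transcripts of the Lilrb4 pair were higher on MSA-DA, Cd72 and Cd300lf were lower, Sirpa was slightly higher, and the other 5 receptors gave no such separation. Of the 10 genes, 9 had enough counts to be tested across all genes, and 5 were called at an adjusted p under 0.05 (edgeR, over 12467 genes), 3 higher and 2 lower. Of all tested genes, 13.4% were called, 6.92% higher and 6.5% lower. The same 5 receptors had groups that did not overlap, a property of 28.4% of tested genes. Because the genes were chosen on this contrast, nothing is read from these counts. The median log2 difference of the 9 tested receptors was -0.01, and that of all tested genes was 0.00. In these bulk samples, fewer cells expressing a gene and less of its RNA per cell cannot be told apart.

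Lilrb4a encodes the immunoglobulin-domain receptor also called gp49B, which restrains mast cells and macrophages (ENSMUSG00000112148, chromosome 10, 51367052 to 51372707, plus strand). It stood at 430 CPM, read counts scaled to library size, in MSA-DA replicate 1, 422 in replicate 2 and 423 in replicate 3, and at 259, 238 and 226 CPM in MSA-ZW replicates 1, 2 and 3. Every MSA-DA library was above every MSA-ZW library, and the MSA-ZW libraries were the more spread. The mean was 425 ± 4.74 CPM on MSA-DA against 241 ± 17.0 on MSA-ZW (SD, n = 3 each), 1.76-fold higher, a log2 difference of 0.82 with a standard error of 0.03. Counting Lilrb4a itself, 50 of the 12467 tested genes had a log2 difference at least as high.

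Lilrb4b, the neighbouring copy known as gp49A, starts upstream of Lilrb4a on the same strand, with 4253 bases between them (ENSMUSG00000112023, chromosome 10, 51356728 to 51362799). Its level was 513, 511 and 487 CPM in MSA-DA replicates 1 to 3 and 337, 316 and 319 CPM in MSA-ZW replicates 1 to 3. The groups lay far apart here too. The mean was 504 ± 14.2 CPM on MSA-DA against 324 ± 11.6 on MSA-ZW (SD, n = 3 each), 1.55-fold higher, with a log2 difference of 0.64 and a standard error of 0.03. The ratio of Lilrb4a to Lilrb4b counts was 0.839, 0.825 and 0.868 on MSA-DA and 0.768, 0.754 and 0.707 on MSA-ZW. The balance within the pair thus lay nearer to Lilrb4a in every MSA-DA library.

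The split of reads within the pair is uncertain. Of all stretches of 100 bases in the Lilrb4b transcripts, 8.8% also occur in another gene, nearly all in Lilrb4a. Of those in the Lilrb4a transcripts, 35.2% do, mostly in Gm49339, a model that spans both genes. Gm49339 itself was given 1, 8 and 9 counts on MSA-DA and 4, 5 and 5 on MSA-ZW. The summed level of the pair does not depend on how reads were divided between the 2 copies. Shared reads that were left out or given to another gene would still be missing from it, and how they were counted is not known. The sum was 943, 932 and 910 CPM on MSA-DA and 597, 554 and 545 CPM on MSA-ZW, again with no overlap.

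**Figure D1:**
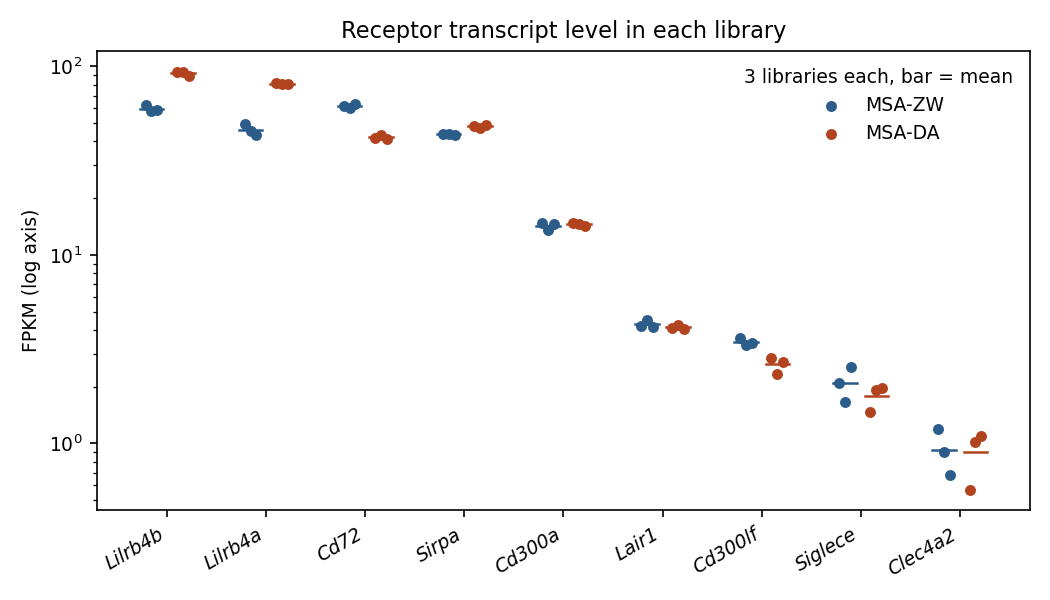
FPKM (fragment counts scaled to exon length and library total, log axis) of 9 receptor genes in each of the 3 MSA-ZW and 3 MSA-DA libraries, with the group mean as a bar. Pirb, at 0.00 to 0.09 FPKM, is left out because a log axis cannot show 0; Lilrb4a, Lilrb4b and Sirpa sit higher on MSA-DA, Cd72 and Cd300lf lower, and the other 4 overlap.

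Cd72, a C-type lectin-like receptor best known as a brake on B cell receptor signalling, moved the other way (ENSMUSG00000028459, chromosome 4, 43446462 to 43454628, minus strand). It stood at 144, 149 and 142 CPM in MSA-DA replicates 1 to 3 and at 210, 207 and 216 CPM in MSA-ZW replicates 1 to 3. Libraries of a gel lay close together and the groups did not overlap. The mean was 145 ± 3.78 CPM on MSA-DA against 211 ± 4.48 on MSA-ZW (SD, n = 3 each), 1.46-fold lower, with a log2 difference of -0.54 and a standard error of 0.03. Counting Cd72 itself, 209 of the 12467 tested genes had a log2 difference at least as low.

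The end of Cd72 overlaps the end of Tesk1, a gene for a testis-associated kinase on the opposite strand, by 1603 bases, and whether reads were counted by strand is not stated in the labels or file headers. Tesk1 had 257, 375 and 393 counts on MSA-DA and 453, 425 and 506 on MSA-ZW, far fewer than Cd72, and its log2 difference was -0.35 (SE 0.08, adjusted p = 0.00388, edgeR; 0.053 without MSA-DA replicate 1). If strand was not used, reads from the 2 genes cannot be separated there. Of the 100-base stretches of the Cd72 transcripts, 32.9% fall in the overlap.

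Markers of B cells, where Cd72 is best known, were at or near 0. Blk had no count in any library, and Ms4a1, Cd79a and Cd79b had at most 2 counts in a library. The 7 B cell markers summed to 1.75 to 2.52 CPM on MSA-DA and 2.39 to 3.29 on MSA-ZW, nearly all of it Pax5.

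Sirpa encodes the receptor for the self-signal CD47, which restrains phagocytosis (ENSMUSG00000037902, chromosome 2, 129434755 to 129474148, plus strand). It stood at 238, 232 and 240 CPM in MSA-DA replicates 1 to 3 and at 215, 215 and 212 CPM in MSA-ZW replicates 1 to 3. The gap between the gels was small but wider than the spread within either. The mean was 237 ± 4.09 CPM on MSA-DA against 214 ± 1.79 on MSA-ZW (SD, n = 3 each), 1.11-fold higher, with a log2 difference of 0.15 and a standard error of 0.03.

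The CD300 receptors bind lipids exposed on dying cells, and the 2 members measured here differed. Cd300lf (ENSMUSG00000047798, chromosome 11, 115007040 to 115024818, minus strand) stood at 14.7, 12.1 and 14.0 CPM in MSA-DA replicates 1 to 3 and at 18.7, 17.1 and 17.6 CPM in MSA-ZW replicates 1 to 3. All MSA-DA libraries were below all MSA-ZW libraries. The mean was 13.6 ± 1.3 CPM on MSA-DA against 17.8 ± 0.788 on MSA-ZW (SD, n = 3 each), 1.32-fold lower, with a log2 difference of -0.40 and a standard error of 0.09. Cd300a (ENSMUSG00000034652) stood at 69.9, 69.7 and 68.1 CPM on MSA-DA and 69.4, 64.5 and 69.3 CPM on MSA-ZW. Its groups overlapped, and the 95% interval of its log2 difference ran from -0.06 to 0.12. Sirpa and Cd300lf were not called by limma on log2(FPKM + 1) or log2(FPKM + 0.1), where 3 of the 10 receptors were.

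Lair1, a receptor for collagen, gave 30.9, 31.8 and 30.3 CPM on MSA-DA and 31.5, 33.7 and 31.1 CPM on MSA-ZW. The groups overlapped, and the 95% interval of its log2 difference of -0.05 ran from -0.17 to 0.08. Siglece, which binds sialic acids, gave 39, 65 and 58 counts on MSA-DA and 64, 50 and 86 on MSA-ZW, a log2 difference of -0.22 with an interval from -0.60 to 0.15. Clec4a2, a C-type lectin also called DCIR, gave 24, 55 and 51 counts on MSA-DA and 58, 43 and 36 on MSA-ZW, a log2 difference of -0.01 with an interval from -0.48 to 0.47. At so few counts these intervals leave room for differences as large as that of Cd300lf in Siglece, and in either direction in Clec4a2. Pirb, a receptor for MHC class I, had 5, 0 and 3 counts on MSA-DA and 1, 1 and 7 on MSA-ZW, too few to test. A difference in Pirb was not detectable at these counts. Of the 100-base stretches of its transcripts, 20.8% also occur in another gene, and how reads there were counted is not known.

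**Figure D2:**
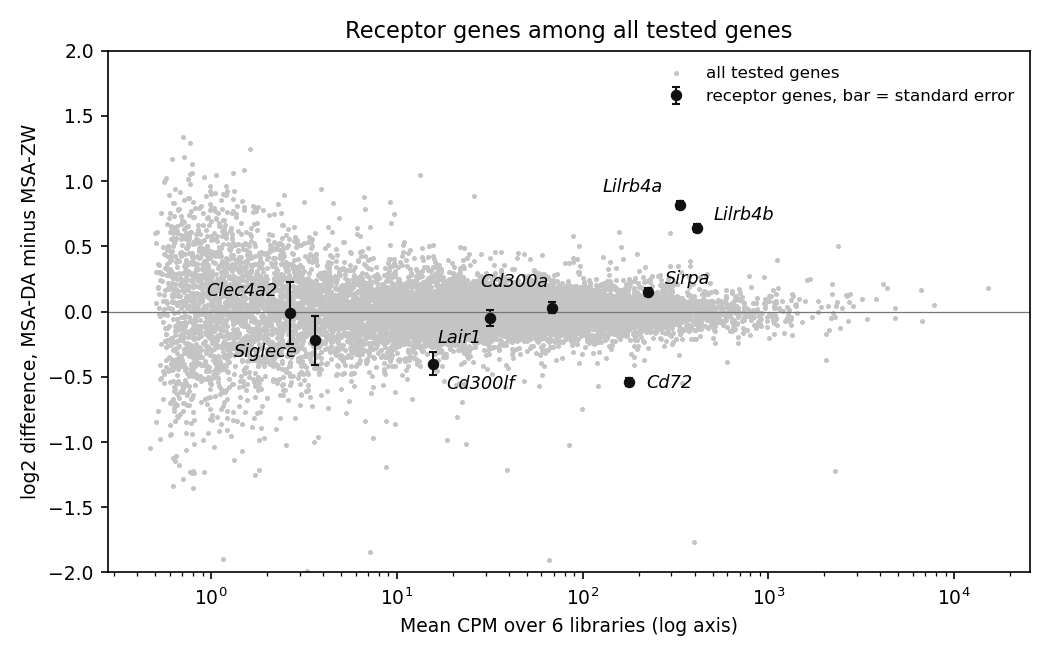
The log2 difference (MSA-DA minus MSA-ZW, edgeR) against mean CPM over the 6 libraries (log axis) for all 12467 tested genes in grey and the 9 tested receptor genes in black, with standard errors as bars; 5 grey genes lie outside the plotted range. Lilrb4a and Lilrb4b lie above, and Cd72 below, most genes of like abundance, while Siglece and Clec4a2 have wide bars at low CPM.

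Levels were compared between genes on the FPKM scale, which divides by gene length. Of the 100-base stretches, 35.2% in Lilrb4a, 8.8% in Lilrb4b, 32.9% in Cd72 and 0% in Sirpa also occur in another gene, on either strand. How reads there were counted is not known, so the order among these genes may depend on it. On MSA-DA the order of mean FPKM was Lilrb4b (92.2), Lilrb4a (81.0), Sirpa (48.0), Cd72 (42.2), Cd300a (14.6), Lair1 (4.13), Cd300lf (2.63), Siglece (1.79), Clec4a2 (0.897) and Pirb (0.04). All neighbours in that order were separated in their libraries. On MSA-ZW the order of mean FPKM began with Cd72 (61.8) and Lilrb4b (59.7), whose libraries overlapped, followed by Lilrb4a (46.2) and Sirpa (43.6), whose libraries overlapped too. Below them the order was that of MSA-DA, with neighbours separated. Cd72 thus stood first by mean on MSA-ZW and behind Sirpa and both Lilrb4 genes on MSA-DA.

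The share of each gel's receptor transcripts can be given in the same way. The Lilrb4 pair made up 60.7%, 60.2% and 59.8% of the summed FPKM of the 10 genes on MSA-DA and 46.0%, 44.7% and 43.6% on MSA-ZW. Cd72 made up 14.4%, 15.1% and 14.6% on MSA-DA and 25.3%, 26.1% and 27.0% on MSA-ZW. The ratio of Lilrb4a to Cd72 FPKM was 1.96, 1.85 and 1.95 on MSA-DA and 0.808, 0.753 and 0.684 on MSA-ZW. By deposited FPKM, Lilrb4a thus stood above Cd72 in every MSA-DA library and below it in every MSA-ZW library. Stretches that these genes share with other genes limit such ranks and shares. The summed FPKM itself was 290, 289 and 284 on MSA-DA and 243, 232 and 234 on MSA-ZW.

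**Figure D3:**
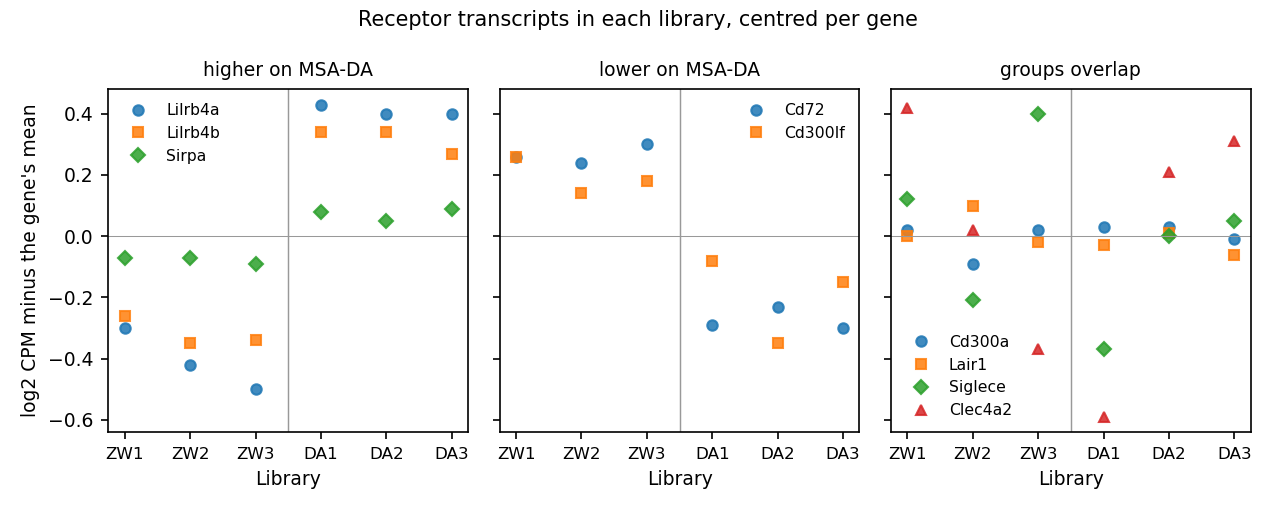
The log2 CPM of each tested receptor gene minus its own mean, in each of the 6 libraries, in 3 panels by direction on MSA-DA. Lilrb4a, Lilrb4b and Sirpa are positive in all MSA-DA libraries and negative in all MSA-ZW libraries, Cd72 and Cd300lf the reverse, and Siglece and Clec4a2 scatter most.

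The genes whose centred log2 CPM over the 6 libraries lay nearest to Lilrb4a, among 8321 genes averaging 10 CPM or more, were Lilrb4b, the noncoding RNAs Neat1 and Gas5, the iron exporter gene Slc40a1 and the transporter gene Abcc5. Their distances were 0.25 for Lilrb4b, 0.28 for Neat1, 0.30 for Slc40a1, 0.33 for Gas5 and 0.40 for Abcc5, against a median of 1.02 over all genes compared. Neat1 stood at a mean of 357 ± 11.8 CPM on MSA-DA and 235 ± 20.7 on MSA-ZW. Slc40a1 stood at 189 ± 5.22 CPM on MSA-DA and 124 ± 2.71 on MSA-ZW. These are SDs over n = 3, and likeness was ranked on the same libraries.

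Among the genes nearest to Cd72 were the AP-1 subunit gene Junb (distance 0.11), the interferon-induced Mx1 (0.12), the sialic acid receptor gene Siglec1 (0.13) and the monocyte chemokine gene Ccl2 (0.13), against a median of 0.68. Siglec1 stood at 30.5 ± 0.318 CPM on MSA-DA against 45.6 ± 1.65 on MSA-ZW (SD, n = 3 each). With 6 libraries in 2 groups, genes with a difference of like size between the gels come out as alike.

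The sequences of the other receptors listed as inhibitory were not read for the motif, so the role of each was not checked. Genes of this list were called in both directions. Of 28 such genes listed, 13 were tested, 3 were higher on MSA-DA, 1 was lower and 9 were not called, so 30.8% were called beside 13.4% of all tested genes, with a median log2 difference of 0.03. Correcting for GC content and length turned this balance, with 1 higher and 3 lower. Ceacam1, an adhesion receptor with ITIMs, rose from 20.3 ± 1.51 CPM on MSA-ZW to 25.6 ± 0.423 on MSA-DA (SD, n = 3 each, here and in the lists that follow; log2 difference 0.33, SE 0.08, adjusted p = 0.00235, edgeR). Clec12a, a lectin that senses dead cells, fell from 91.5 ± 2.94 to 79.0 ± 2.08 CPM (log2 difference -0.21, SE 0.04, adjusted p = 0.000377, edgeR). Fcrl1 (log2 difference 0.13, adjusted p = 0.0115) and Milr1, the allergin gene (0.10, adjusted p = 0.0346), passed by less. Fcrl1 was not called without MSA-DA replicate 2 (adjusted p = 0.0647), MSA-DA replicate 3 (0.127) or MSA-ZW replicate 2 (0.0976), nor after correcting for GC content and length (0.15). Milr1 was not called without any 1 of MSA-DA replicates 1 (adjusted p = 0.0508), 2 (0.118) and 3 (0.245) or MSA-ZW replicates 1 (0.0977) and 2 (0.0982), nor by DESeq2 (0.096) or after the GC correction (0.0865), and the list's count was 2 without MSA-DA replicate 2 or 3 or MSA-ZW replicate 2. Fcgr2b, the inhibitory Fc receptor, stood at 8.18 ± 0.188 CPM on MSA-DA and 7.26 ± 0.593 on MSA-ZW and was not called (adjusted p = 0.386, edgeR).

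Among activating relatives and their adaptors, 20 of 38 listed genes were tested, 1 was higher, 3 were lower and 16 were not called (20% called, beside 13.4% of all tested genes), with a median log2 difference of -0.03. Correcting for GC content and length gave 0 higher and 4 lower. Clec5a, a lectin that signals through DAP12, fell from 299 ± 3.06 CPM on MSA-ZW to 249 ± 3.53 on MSA-DA (log2 difference -0.26, SE 0.03, adjusted p = 3.2e-08, edgeR). Fcer1g, the Fc receptor gamma adaptor, fell from 88.1 ± 1.62 to 79.0 ± 4.47 CPM (log2 difference -0.16, adjusted p = 0.0123), a call lost without MSA-DA replicate 1 (adjusted p = 0.1) or MSA-ZW replicate 2 (0.0536). Trem1, an amplifier of inflammation, fell from 2.99 ± 0.203 to 1.70 ± 0.0991 CPM (log2 difference -0.81, SE 0.23, adjusted p = 0.0137), a call lost without MSA-DA replicate 2 (0.0632) or 3 (0.0522). Clec4d, a lectin for mycobacterial lipid, rose from 441 ± 9.15 to 485 ± 15.7 CPM (log2 difference 0.14, adjusted p = 0.000705), but not after correcting for GC content and length (0.148). The DAP12 gene Tyrobp (log2 difference -0.03, adjusted p = 0.704) and Trem2, a lipid sensor that signals through it (-0.10, adjusted p = 0.0631), were not called. Trem2 passed without MSA-DA replicate 1 (adjusted p = 0.0289) or MSA-ZW replicate 2 (0.0183) and with library sizes without ribosomal-RNA-like and mitochondrial genes (0.0494).

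Of 33 listed enzymes and adaptors that act next to the receptors, 31 were tested, 2 were higher, 5 were lower and 24 were not called (22.6% called, beside 13.4% of all tested genes), with a median log2 difference of -0.08. Inpp5d, which encodes SHIP1, fell from 182 ± 6.82 CPM on MSA-ZW to 159 ± 2.58 on MSA-DA (log2 difference -0.19, SE 0.03, adjusted p = 8.42e-05, edgeR). The other ITIM-binding phosphatases, Ptpn6 for SHP-1 (log2 difference -0.08, adjusted p = 0.0857) and Ptpn11 for SHP-2 (-0.06, adjusted p = 0.238), were not called. The Src-family kinase genes Fgr and Lyn were lower: Fgr fell from 6.01 ± 1.1 to 4.01 ± 0.626 CPM (log2 difference -0.59, adjusted p = 0.0122) and Lyn from 254 ± 6.06 to 238 ± 5.01 CPM (-0.09, adjusted p = 0.042). The adaptor gene Blnk fell from 47.6 ± 0.394 to 40.7 ± 0.752 CPM (adjusted p = 0.00313), whereas Card9 (log2 difference 0.25, adjusted p = 0.00579) and Lat2 (0.11, adjusted p = 0.00891) rose. Without 1 library, the call was lost for Fgr without MSA-DA replicate 3 (adjusted p = 0.0871) or MSA-ZW replicate 3 (0.0793), for Card9 without MSA-DA replicate 2 (0.0932) and for Lat2 without MSA-DA replicate 1 (0.0536) or 3 (0.0651). Lyn lost it without MSA-DA replicates 1 (0.124), 2 (0.0502) or 3 (0.149) and MSA-ZW replicates 2 (0.122) or 3 (0.0579), and with DESeq2 (0.0646). The list's count was 4 without MSA-DA replicate 3.

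Genes for ligands that the cells may make themselves were then read. Of 26 listed genes, 11 were tested, 5 were lower on MSA-DA, 0 were higher and 6 were not called, with a median log2 difference of -0.12. At an unadjusted p under 0.05 edgeR gave 2 higher and 6 lower, and DESeq2 with adjustment gave 0 higher and 5 lower. Of 9 ligand genes tested by limma, 0 were called on log2(FPKM + 1) or log2(FPKM + 0.1), Cd47, Itgav and H2-K1 included. With a variance trend, limma on log2(FPKM + 1) gave 0 higher and 4 lower. Of all tested genes 13.4% were called, 6.5% lower. Leaving out 1 library gave 4 to 7 calls, and without MSA-ZW replicate 3 there were 6 lower and 1 higher. Cd47, the ligand of the Sirpa product, fell from 150 ± 4 CPM on MSA-ZW to 134 ± 2.8 on MSA-DA (log2 difference -0.16, SE 0.03, adjusted p = 0.000863, edgeR), while Sirpa itself was higher. Itgav, the alpha-v chain of the integrin that the Lilrb4a product binds, fell from 125 ± 6.87 to 105 ± 4.03 CPM (log2 difference -0.25, SE 0.04, adjusted p = 2.89e-05). The listed integrin beta chain gene Itgb3 had 3, 7 and 4 counts on MSA-DA and 12, 15 and 10 on MSA-ZW, too few to test. A fall of the whole integrin is therefore not shown. The MHC class I genes H2-K1 (log2 difference -0.16, adjusted p = 0.000757) and H2-D1 (-0.12, adjusted p = 0.000348) fell too, and their reads may be shared with other class I genes. H2-D1 was not called after correcting for GC content and length (adjusted p = 0.0745). Sema4d, the ligand of CD72, fell from 259 ± 8.82 to 240 ± 5.97 CPM (log2 difference -0.11, adjusted p = 0.016), a call lost without MSA-DA replicate 3 (0.111) or MSA-ZW replicate 1 (0.102) and after the GC correction (0.192). B2m, the class I light chain, was not called (log2 difference -0.06, adjusted p = 0.0664), but passed without MSA-DA replicate 1 (0.0394) or MSA-ZW replicate 1 (0.0127) or 3 (0.0424), after the GC correction (0.000232) and with library sizes without ribosomal-RNA-like and mitochondrial genes (0.045). Apoe was low and was not called (log2 difference 0.43, SE 0.25, adjusted p = 0.309).

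**Figure D4:**
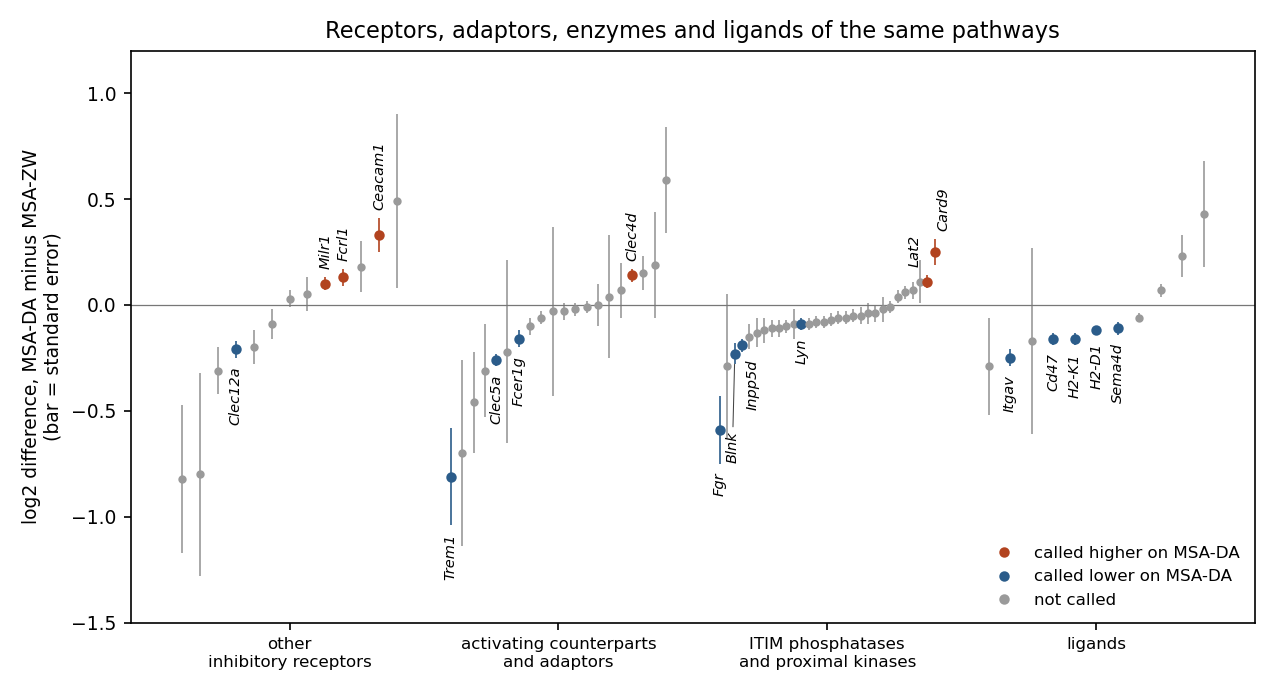
The log2 difference (MSA-DA minus MSA-ZW, edgeR, bar = standard error) of the tested genes of the 4 lists, 1 called enzyme gene left out, ordered by value within a list, with the called genes shown named and coloured by direction. The called ligand genes all lie below 0, and the called genes of the other lists lie on both sides.

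Of 92 other genes that start within 100 kb of a receptor gene, 34 were tested, 1 was higher and 3 were lower, a share near the 13.4% called over all tested genes. Of the 3 tested genes near the Lilrb4 pair, the copies themselves apart, 0 were called by edgeR, 0 at an unadjusted p under 0.05 and 0 by DESeq2. Gm46189 (log2 difference -0.22, SE 0.41) and Gm48786 (0.18, SE 0.32) had only 67 and 129 counts over all libraries, so differences could be missed there. Gm46224, with 509 counts, gave 0.09 (SE 0.16). Leng8, near Lair1, was higher (log2 difference 0.30, adjusted p = 0.00353, edgeR), and Tesk1, Tln1 near Cd72 (-0.10, adjusted p = 0.00418) and Rps9 near Pirb (-0.07, adjusted p = 0.045) were lower. Tln1 was not called after correcting for GC content and length (log2 difference -0.01, adjusted p = 0.795), nor was Rps9 (0.166). Rps9 also lost its call without MSA-DA replicate 1 (adjusted p = 0.109), 2 (0.105) or 3 (0.111) and without MSA-ZW replicate 1 (0.0703) or 3 (0.0733).

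Count totals were 14374912 to 18346615 per library, and no 2 libraries agreed within sampling noise. The macrophage markers Lyz2, Cd68, Csf1r and Cd14 were abundant in every library. Adgre1 was less abundant than these, at a mean of 25.8 CPM on MSA-DA and 25.1 on MSA-ZW, and was not called (adjusted p = 0.776, edgeR). Fcgr3 was low, at 2.53 and 2.41 CPM, and Mertk had at most 3 counts. The 9 macrophage markers summed to 4490 to 4560 CPM on MSA-DA and 5180 to 5270 on MSA-ZW. Of the 8 tested, 1 was higher and 4 were lower, beside 13.4% called of all tested genes. Those lower included Lyz2 (log2 difference -0.37, adjusted p = 2.36e-16, edgeR), Csf1r (-0.20, adjusted p = 2.22e-08) and Cd14 (-0.10, adjusted p = 0.00311). Lyz2 alone averaged 1770 CPM on MSA-DA and 2290 on MSA-ZW. The part of these markers in the receptor differences was not tested. Markers of T and NK cells summed to at most 11.8 CPM, nearly all Lck, and Cd3d, Cd3g, Cd8a and Ncr1 were at 0. Those of dendritic cells reached at most 2.03 CPM with Cd209a and Siglech at 0, and those of neutrophils and mast cells at most 1.84 with S100a9, Mpo, Mcpt4 and Kit at 0. Fibroblast and epithelial markers reached at most 0.494 CPM, with Dcn, Epcam, Krt18 and Cdh1 at 0.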

How the data were processed

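Total RNA was extracted with Trizol and sequenced, per the labels' protocols. The submitters' processing notes name HISAT2 2.2.1, cutadapt 1.9.1 and bcl2fastq 2.20.0.422 with the build GRCm39. In the sources used here nothing names the counting tool, its strand setting, the annotation release or any selection of messenger RNA. The authors deposited raw counts and FPKM for 56691 genes in 6 libraries, per the file headers. The deposited FPKM equal the count divided by exonic length and library total, to within 0.005. Libraries were grouped by their titles.

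The gels were compared with edgeR 4.0.16 (quasi-likelihood test, TMM, filterByExpr, no term besides the gel) in R 4.3.3 on the deposited counts, with Benjamini-Hochberg adjustment over 12467 genes and a threshold of 0.05. The script was tested on simulated data. CPM use TMM-scaled library sizes, and a fold is an edgeR estimate. Alternatives were DESeq2 1.42.0, limma 3.58.1 on log2(FPKM + 1) and log2(FPKM + 0.1) for genes of at least 1 FPKM in 3 libraries, no filter on low counts, RLE size factors, library sizes without ribosomal-RNA-like and mitochondrial genes, a GC and length correction, a replicate block and leaving out each library. limma with a variance trend was added after the data were seen. Equal replicate numbers did not pair the libraries.

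Sequences and motifs come from GENCODE transcripts of GRCm38, matched by gene ID for 10 of 10 genes. The membrane span was taken as the most hydrophobic window of 19 residues. The side was set beforehand: the tail inside the cell is at the protein's start in Cd72 and Clec4a2 and at its end in the others. For those others, the start of the protein was left out of the search for the window. The receptors and gene lists were chosen with earlier results of these data known. The genes named are all receptors, up to 8 called genes of each list with the smallest adjusted p, 15 genes fixed by name, called genes within 100 kb of a receptor, and the 5 genes of at least 10 CPM nearest to Lilrb4a and to Cd72 by Euclidean distance. Values of 3 of these or of the marker genes are not reported here.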

Additional observations from a re-analysis of the deposited data

How the results depend on the processing

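The number of receptors called was 5 in every refit with edgeR, including those that left out 1 library (5 to 5), and with limma with a variance trend. It was 4 with DESeq2, which gave Cd300lf no adjusted p, and 3 with limma on either FPKM scale. Across these alternatives the log2 difference ran from 0.76 to 0.87 for Lilrb4a, 0.58 to 0.66 for Lilrb4b, -0.57 to -0.48 for Cd72, 0.13 to 0.19 for Sirpa and -0.46 to -0.30 for Cd300lf. Of 774 single-gene alternatives, 664 stayed on their side of the threshold, 101 lost the call, 9 gained it and 0 reversed a called gene. Over all genes, 1673 were called, against 1001 to 1654 when 1 library was left out (1001 without MSA-DA replicate 2, 1065 without MSA-DA replicate 3), 949 with DESeq2, 403 with limma on log2(FPKM + 1), 319 on log2(FPKM + 0.1) and 906 with the variance trend. The GC and length correction left 1230 calls, or 1184 with the replicate block. Over tested genes, the log2 difference and GC content had a Spearman correlation of -0.32. GC content was 41.6% for Lilrb4a, 42.5% for Lilrb4b and 56.5% for Cd72. Their corrected log2 differences were 0.76, 0.58 and -0.48. Leaving out 1 library gave 2 to 4 calls among other inhibitory receptors, 4 to 7 among enzymes and adaptors and 4 to 7 among ligands. limma on log2(FPKM + 1) gave 2 calls among other inhibitory receptors, 1 among activating relatives, 1 among enzymes and 0 among ligands. On log2(FPKM + 0.1) it gave 0, 1, 1 and 0, and with the variance trend it gave 2 among other inhibitory receptors. The cause was not tested. Same-numbered libraries deviated with correlations of 0.01, 0.02 and 0, and the fit with the replicate number as a block called 1594 genes and 5 receptors, and among the genes named it changed the call of Rps9 (adjusted p = 0.0562). Low counts limit Siglece, Clec4a2 and Pirb.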
